A study of Mus musculus with 9 samples.

Results

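Genes for the proteins of the mitochondrial ribosome were followed in a cultured mouse line of acute myeloid leukaemia after withdrawal of doxycycline, which switches off its FLT3-ITD transgene. The members are the 78 rows, of 24756 in the count table, whose symbol starts with Mrpl or Mrps and a digit, without symbols marked as pseudogenes. The line was made from murine foetal liver cells with a pair of retroviral vectors, MSCV-Luc2-IRES-MLL-AF9, which makes the leukaemia fusion protein MLL-AF9 at all times, and TRE-tight-DsRED-IRES-FLT3-ITD, which makes the receptor tyrosine kinase FLT3-ITD only while doxycycline is present. All 9 libraries, 3 per group, carry both vectors. The ON group was kept in 1 µg/mL doxycycline. The OFF24 and OFF48 groups were washed and kept without doxycycline for 24 h and 48 h. Loss of FLT3-ITD and loss of doxycycline itself occurred together, so their effects cannot be told apart, and no group here received doxycycline without the inducible vector. The labels do not state whether replicate libraries stem from separate cultures, so the p-values rest on a spread between libraries that may be technical only.

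The mitochondrial ribosome translates the few membrane proteins encoded by mitochondrial DNA, all of them subunits of the respiratory chain and ATP synthase. Its ribosomal RNAs are made inside the organelle, whereas every one of its proteins is encoded in the nucleus, made on cytosolic ribosomes and imported. Some of these proteins descend from bacterial ribosomal proteins and others were added in mitochondria, and doxycycline, an antibiotic of the tetracycline class, binds bacterial ribosomes and also inhibits mitochondrial translation. Of the 78 members, 26 belong to the small subunit and 51 to the large subunit. The remaining member, Mrps36, bears a ribosomal symbol but is known as a subunit of the 2-oxoglutarate dehydrogenase complex. By the systematic names, 46 members are homologues of bacterial ribosomal proteins and 31 are specific to mitochondria.

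Expression was read from the 3' ends of polyadenylated transcripts. Total counts ran from 1329296 (OFF48 replicate 2) to 4038456 (ON replicate 2), and the upper limit that a count of 0 allows (3 counts) was 0.743 to 2.26 CPM, the read count scaled for library size. The mouse Flt3 gene had 2 to 10 counts in every library and was not tested, and its 3' counts do not check a transgene whose transcript ends in vector sequence. Of 13 haematopoietic and myeloid markers, 12 were tested, of which 9 rose and 0 fell at 24 h (also 0 at an unadjusted p under 0.05), and 8 rose and 1 fell at 48 h. Over all tested genes, 17.8% rose and 17.4% fell at 24 h, and 23.4% rose and 23.9% fell at 48 h. The next values are for the 13 markers. Their summed level was 3309 to 3565 CPM in ON, 4975 to 5422 CPM in OFF24 and 5762 to 6724 CPM in OFF48 libraries. Mpo, a granule enzyme of early myeloid cells, was higher by 2.31 and 3.46 on the log2 scale in OFF24 and OFF48 than in ON, and Kit was the marker under the filter. The myeloid markers thus mostly rose at the same times at which members fell (below), and their part in those falls was not tested. Of 24 markers of other foetal liver cells (erythroid, lymphoid, megakaryocytic, mast cell, hepatic and stromal), 23 lay under the filter on low counts, and 8 were at 0 in all libraries, among them Alb, Ttr and Cdh5. The 1 marker tested was higher than in ON at both times, with log2 fold changes of 1.55 and 0.82, and was lower in OFF48 than in OFF24 (−0.73). The summed level of all 24 markers was 7.65 to 11.5 CPM in ON, 19.2 to 25.4 CPM in OFF24 and 10.5 to 20.1 CPM in OFF48 libraries. In bulk RNA, fewer cells of a type and less RNA per cell cannot be told apart.

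Promoters of 4 members are shown as examples: the 3 members with S18 in their symbol, of which 2 fell and 1 did not pass the test, and Mrpl33, which was higher at 24 h. Whether promoter letters relate to the falls and rises was not tested. Each run is 300 bases, 250 before and 50 after the RefSeq transcription start on GRCm38.p6, written 5′ to 3′ along the gene. Capitals mark matches on either strand to CCGGAAG (the core bound by ETS factors such as GABP), AAGATGGC (YY1), GCATGCGC (NRF1), CACGTG (the E-box bound by MYC and its partners) and CCAATC (the CCAAT box), so a match on the reverse strand appears as its reverse complement.
Mrps18a, chr17:46110754-46111053, plus strand: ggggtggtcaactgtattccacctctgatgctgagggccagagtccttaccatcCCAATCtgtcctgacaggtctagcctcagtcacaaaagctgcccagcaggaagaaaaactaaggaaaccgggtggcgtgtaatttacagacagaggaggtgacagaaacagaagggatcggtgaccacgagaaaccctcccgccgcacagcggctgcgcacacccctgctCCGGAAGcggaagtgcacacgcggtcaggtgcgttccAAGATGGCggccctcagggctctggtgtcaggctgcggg
Mrps18b, chr17:35916391-35916690, minus strand: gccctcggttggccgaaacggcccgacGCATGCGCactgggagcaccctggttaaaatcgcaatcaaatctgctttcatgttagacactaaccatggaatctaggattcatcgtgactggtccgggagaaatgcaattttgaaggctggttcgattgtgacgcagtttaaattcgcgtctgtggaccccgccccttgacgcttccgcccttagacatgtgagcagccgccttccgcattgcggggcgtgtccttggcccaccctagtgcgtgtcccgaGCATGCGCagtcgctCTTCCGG
Mrps18c, chr5:100798509-100798808, plus strand: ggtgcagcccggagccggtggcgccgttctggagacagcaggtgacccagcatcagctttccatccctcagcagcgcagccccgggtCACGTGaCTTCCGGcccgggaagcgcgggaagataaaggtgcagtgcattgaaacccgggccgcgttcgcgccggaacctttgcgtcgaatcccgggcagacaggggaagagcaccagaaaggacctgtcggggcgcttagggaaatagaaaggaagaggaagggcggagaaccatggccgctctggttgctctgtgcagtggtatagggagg
Mrpl33, chr5:31613701-31614000, plus strand: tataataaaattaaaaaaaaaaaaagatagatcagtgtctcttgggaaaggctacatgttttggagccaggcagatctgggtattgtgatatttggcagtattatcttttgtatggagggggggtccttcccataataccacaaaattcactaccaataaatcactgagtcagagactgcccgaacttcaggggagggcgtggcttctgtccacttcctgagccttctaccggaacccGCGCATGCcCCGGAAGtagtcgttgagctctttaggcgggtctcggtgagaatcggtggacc

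The ETS letters stand in all 4 of these windows. Over the members, 75 windows of 69 genes were found in the RefSeq table, and 34.7% of them held the ETS letters, against 19.7% of the windows of tested genes and 8.86% of all 32841 windows. The YY1 letters stood in 16% of member windows, against 5.01% of those of tested genes. The NRF1 letters stood in 10.7% of member windows, against 5.7% of those of tested genes. The E-box letters (9.33% against 10.4%) and the CCAAT letters (20.0% against 20.9%) differed little between member windows and those of tested genes. Overlapping windows of 1 gene were each counted, and those of Mrpl2 hold both the E-box and the CCAAT letters. By gene, 5 of 69 members held the E-box letters and 13 of 69 the CCAAT letters. The ETS letters stood in a window of 16 of 44 members that fell at 48 h and of 10 of 25 that did not pass. A match is a run of letters and not a measured binding site.

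The members as a group were lower after withdrawal, with a lower sum at 48 h than at 24 h. Their summed level was 4561, 4529 and 4655 CPM in the ON libraries, 3682, 3720 and 3807 CPM in the OFF24 libraries and 3435, 3314 and 3245 CPM in the OFF48 libraries. The 3 groups did not overlap, and the OFF24 and OFF48 means were 81.6% and 72.7% of the ON mean. As a share of all counts, members took 0.456% to 0.464% in ON, 0.364% to 0.375% in OFF24 and 0.328% to 0.339% in OFF48 libraries.

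**Figure D1:**
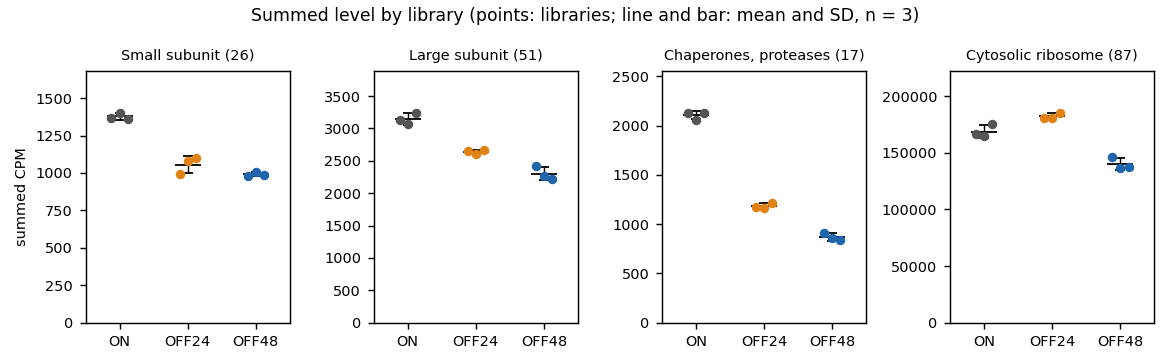
Summed normalised read count (CPM) per library of the small-subunit members, the large-subunit members, mitochondrial chaperones and proteases, and cytosolic ribosomal proteins in ON, OFF24 and OFF48. Points are libraries, and the line and bar are the mean and SD of 3 libraries. Both mitochondrial subunits are lower in every OFF24 and OFF48 library than in any ON library, whereas the cytosolic ribosomal proteins are higher in the OFF24 libraries and lower in the OFF48 libraries.

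All 78 members passed the filter on low counts, so each was tested in edgeR's quasi-likelihood test with Benjamini-Hochberg adjustment over all 10215 tested genes and a threshold of 0.05. At 24 h against ON, 37 members fell, or 47.4% of them, where 17.4% of all tested genes fell, and 2 rose, where 17.8% of all tested genes rose. The median log2 fold change of the members was −0.39, against 0.03 over all tested genes, of which 35.3% changed in either direction. At 48 h against ON, 49 members fell, or 62.8%, where 23.9% of all tested genes fell, and none rose, where 23.4% of all tested genes rose. Their median was −0.62, against 0.01 over all tested genes, of which 47.4% changed in either direction. The count of members that rose at 48 h was also 0 in DESeq2 and limma-voom, and 0 in edgeR at an unadjusted p under 0.05. Single changes were mostly of modest size. Falls of at least 2-fold numbered 4 of 78 at 24 h and 9 of 78 at 48 h, where 4.33% and 8.82% of all tested genes fell that far.

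Without the test, 43 members had every OFF24 library below every ON library, against 23.8% of all tested genes, and 4 had every OFF24 library above, against 25.1%. For OFF48 and ON, 52 members were lower in every OFF48 library, against 27% of all tested genes, and 0 were higher in every one, against 25.6%. Both comparisons share the ON libraries. Side by side, 33 members fell at both times, 16 passed the test only at 48 h, 4 fell at 24 h and did not pass at 48 h, 2 rose at 24 h and did not pass at 48 h, and 23 passed at neither. Across the members, Pearson's r between the log2 of the mean ON level and the log2 fold change was 0.0886 at 24 h and 0.0905 at 48 h. It is given as a description over 78 genes that share libraries, and the ON level also enters the fold change. The genes lie on 17 chromosomes.

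**Figure D2:**
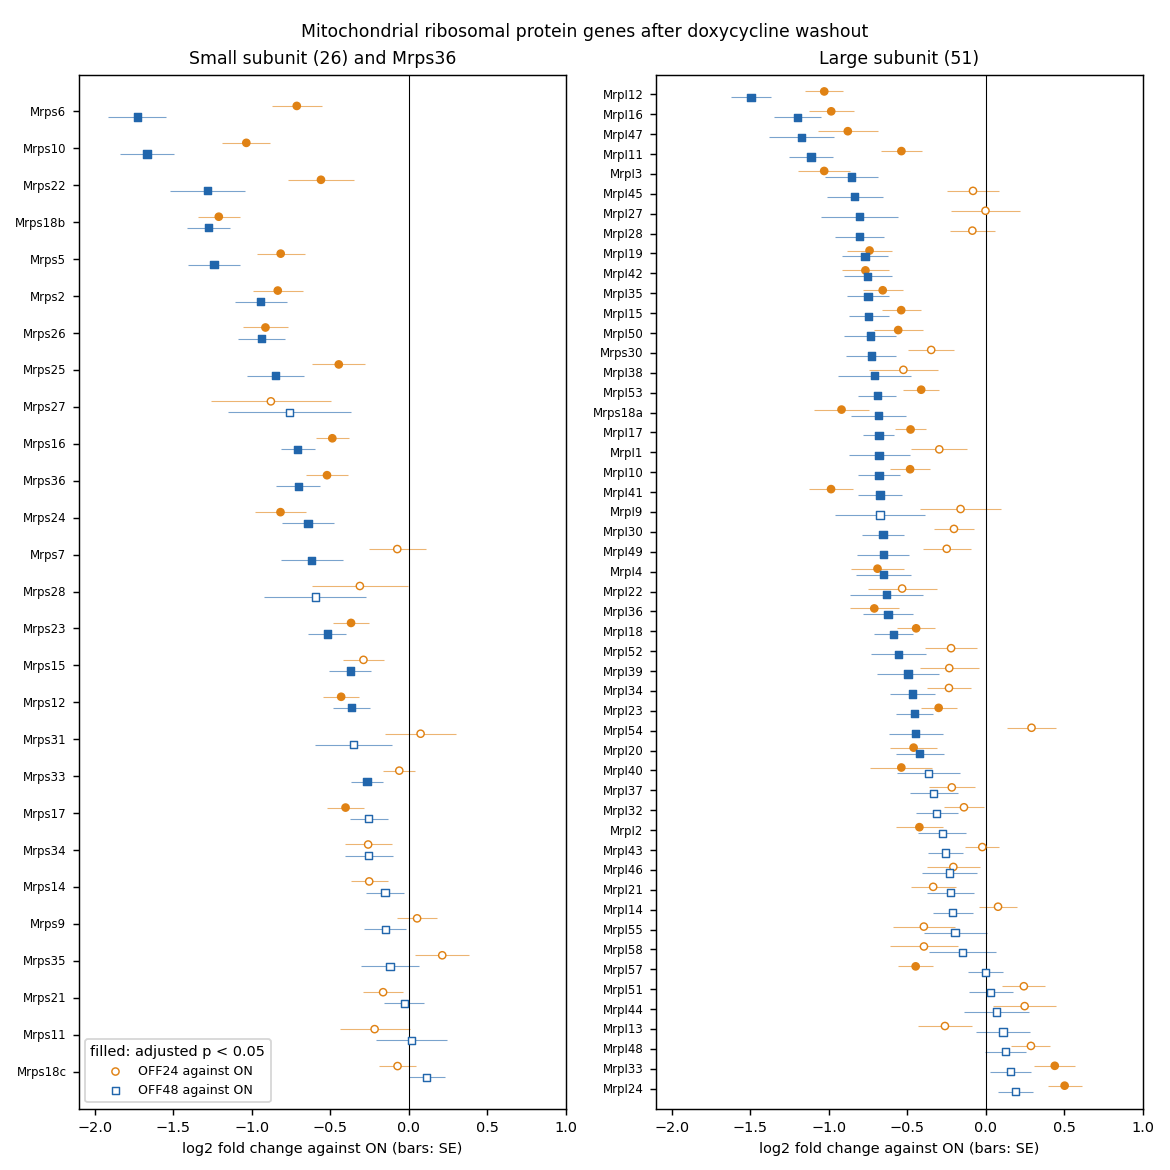
Log2 fold change against ON of each of the 78 members at 24 h (circles) and 48 h (squares), with the standard error as bars, for the small subunit with Mrps36 (left) and the large subunit (right). Filled symbols passed an adjusted p under 0.05. Filled symbols lie almost all left of 0, and the only filled symbols right of 0 are Mrpl33 and Mrpl24 at 24 h.

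Members of both subunits fell. In the small subunit, 13 of 26 members fell at 24 h (median −0.39) and 15 at 48 h (median −0.56), and 0 rose at either time, also at an unadjusted p under 0.05. In the large subunit, 23 of 51 fell and 2 rose at 24 h (median −0.39), and 33 fell and none rose at 48 h (median −0.63). The summed small-subunit level was 1369, 1403 and 1362 CPM in ON, 992.1, 1079 and 1097 CPM in OFF24 and 980.0, 1009 and 988.7 CPM in OFF48 libraries. The summed large-subunit level was 3134, 3065 and 3244 CPM in ON, 2648, 2608 and 2668 CPM in OFF24 and 2421, 2268 and 2222 CPM in OFF48 libraries. Between OFF24 and OFF48 the large-subunit sums did not overlap, while the small-subunit sums did. Of the 46 homologues of bacterial proteins, 24 fell and 2 rose at 24 h and 30 fell at 48 h, with medians of −0.41 and −0.63. Of the 31 proteins specific to mitochondria, 12 fell at 24 h and 18 at 48 h, with medians of −0.35 and −0.52. No difference between subunits or classes was tested.

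Among small-subunit members, Mrps18b had the largest fall at 24 h and Mrps6 at 48 h, with Mrps10 next after each of them. Mrps10 (chr17:47368887-47381417 in GRCm38, plus strand) encodes the homologue of bacterial S10 in the head of the subunit. Its level was 53.1, 47.4 and 48.0 CPM in ON, 20.5, 25.1 and 26.2 CPM in OFF24 and 12.4, 21 and 15.7 CPM in OFF48 libraries. Every OFF24 and OFF48 library lay below every ON library, and OFF24 and OFF48 overlapped in 1 library. Against ON it changed by −1.03 ± 0.15 (SE) on the log2 scale at 24 h (edgeR adjusted p = 3.93e-05) and −1.67 ± 0.17 at 48 h (edgeR adjusted p = 1.95e-07).

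Mrps6 (chr16:92058270-92112227, plus strand), the homologue of bacterial S6 on the platform of the subunit, fell in 2 steps. It had 44.9, 34.6 and 41.9 CPM in ON, 24.7, 22 and 27.1 CPM in OFF24 and 14.1, 8.25 and 12.2 CPM in OFF48 libraries, with no overlap between any pair of groups. Its log2 fold change against ON was −0.71 ± 0.16 at 24 h and −1.73 ± 0.19 at 48 h (edgeR adjusted p = 0.00192 and 3.22e-07), the largest fall of any member at 48 h.

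Of the 3 members with S18 in their symbol, 2 fell and 1 did not pass the test, under every scaling tried. The 2 that fell are counted above as specific to mitochondria, by their systematic names. Mrps18b (chr17:35910379-35916389, minus strand) encodes mS40, a separate small-subunit protein, and had the largest fall of any member at 24 h. Its level was 77.3, 88.7 and 81.2 CPM in ON, 28.8, 37.0 and 39.9 CPM in OFF24 and 37.2, 32.2 and 32.1 CPM in OFF48 libraries, so both later groups lay far below ON and overlapped each other. Against ON its log2 fold change was −1.21 ± 0.13 at 24 h and −1.28 ± 0.14 at 48 h (edgeR adjusted p = 1.18e-06 and 3.21e-07). Mrps18a (chr17:46110986-46128910, plus strand), whose product is the large-subunit protein mL66, had 26, 31.7 and 24.0 CPM in ON, 12.1, 15.4 and 15.5 CPM in OFF24 and 15.4, 18 and 18.1 CPM in OFF48 libraries. Here too no OFF24 or OFF48 library reached the lowest ON library, and the log2 fold change was −0.92 ± 0.17 and −0.68 ± 0.18 (edgeR adjusted p = 0.000466 and 0.00348). Mrps18c (chr5:100798627-100804471, plus strand), which keeps the bacterial S18 position in the small subunit, had 56.1, 54.0 and 63.0 CPM in ON, 52.3, 55.2 and 56.3 CPM in OFF24 and 59.4, 62.2 and 65.0 CPM in OFF48 libraries. Both OFF24 and OFF48 overlapped ON, and the log2 fold change of −0.07 ± 0.12 and 0.11 ± 0.12 did not pass the test (edgeR adjusted p = 0.662 and 0.44). The 3 promoters printed above all hold the ETS letters. The 3' ends of Mrps18b and Mrps18c each match 1 other annotated gene, neither of which is in the count table, and Mrps18a has no such match. The 3' end of Mrps18b is also overlapped on the opposite strand, and that of Mrps18c on the same strand, by unnamed gene models absent from the count table. Mrps18a has no such overlap.

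Further small-subunit members with named roles either fell or did not pass. Mrps5, at the entry of the mRNA channel in bacteria, had a log2 fold change of −0.82 ± 0.15 at 24 h and −1.24 ± 0.17 at 48 h. Mrps2 fell by 0.83 and 0.94, and both changes passed the test (edgeR adjusted p = 0.00046 and 0.000109). Mrps22, specific to mitochondria, had a log2 fold change of −0.56 at 24 h (edgeR adjusted p = 0.0453), which did not pass in DESeq2 (adjusted p = 0.138) or without any 1 of 5 libraries (0.0717 to 0.162), and −1.28 at 48 h (edgeR adjusted p = 0.000213). Mrps12, whose bacterial homologue sits at the decoding centre, had 63.5, 59.0 and 66.6 CPM in ON, 45.6, 47.4 and 46.8 CPM in OFF24 and 45.3, 51.7 and 50.4 CPM in OFF48 libraries. Its fall was small, at −0.43 and −0.36 on the log2 scale, but with no overlap with ON at either time (edgeR adjusted p = 0.00714 and 0.0165). The change at 48 h did not pass without ON replicate 3 or OFF48 replicate 1 (edgeR adjusted p = 0.0525 and 0.0826) or in DESeq2 (adjusted p = 0.054). Mrps7, the homologue of S7, passed at 48 h only, with a log2 fold change of −0.62 (edgeR adjusted p = 0.0152, or 0.108 without OFF48 replicate 3, and 0.0529 in DESeq2), and OFF48 did not pass against OFF24 (edgeR adjusted p = 0.0667). Mrps34, specific to mitochondria, passed at neither time, at −0.26 on the log2 scale at both, though its value at 48 h was −0.45 without OFF48 replicate 3 (edgeR adjusted p = 0.0347). The 3' ends of Mrps7 and Mrps34 are overlapped on the opposite strand by Mif4gd and Mapk8ip3. Mif4gd rose at 48 h by 0.51 (edgeR adjusted p = 0.00305), and Mapk8ip3 did not pass at either time.

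In the large subunit, all 3 proteins of the stalk that recruits translation factors fell. Mrpl12, the homologue of bacterial L7/L12, which is also reported to bind the mitochondrial RNA polymerase, lies at chr11:120484613-120489065 on the plus strand. It had 133, 125 and 162 CPM in ON, 66.1, 65.3 and 73.3 CPM in OFF24 and 53.0, 52.5 and 44.0 CPM in OFF48 libraries, and the 3 groups did not overlap. The log2 fold change against ON was −1.03 ± 0.12 at 24 h and −1.50 ± 0.13 at 48 h (edgeR adjusted p = 2.9e-06 and 2e-08). Mrpl11, whose bacterial homologue forms the base of the stalk, had 48.2, 45.7 and 47.2 CPM in ON, 36.0, 30.1 and 31.6 CPM in OFF24 and 22.8, 19.5 and 21.9 CPM in OFF48 libraries. Its groups were likewise apart, with log2 fold changes of −0.54 ± 0.13 and −1.11 ± 0.14 (edgeR adjusted p = 0.00317 and 2.71e-06). Mrpl10, which carries the L12 copies, fell by 0.48 and 0.68 on the log2 scale.

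Mrpl3 and Mrpl16, whose bacterial homologues lie near the peptidyl transferase centre, were lower at both times. Mrpl3 had 46.4, 50.8 and 37.6 CPM in ON, 18.8, 24.5 and 22.6 CPM in OFF24 and 22.8, 33.0 and 22.7 CPM in OFF48 libraries. Mrpl16 had 43.6, 53.8 and 50.8 CPM in ON, 26.3, 27.3 and 21.4 CPM in OFF24 and 22.5, 21.7 and 20.4 CPM in OFF48 libraries. For both genes every OFF24 and OFF48 library lay below every ON library. Mrpl3 had a log2 fold change of −1.03 ± 0.17 and −0.85 ± 0.17 (edgeR adjusted p = 9.01e-05 and 0.000353), and that of Mrpl16 was −0.98 ± 0.14 and −1.20 ± 0.15 (edgeR adjusted p = 3.14e-05 and 2.71e-06). Mrpl4, whose bacterial homologue lines the exit tunnel, fell by 0.69 and 0.65. Mrpl36, a homologue of the small bacterial protein L36, fell by 0.71 and 0.62, and its 3' end matches a stretch of Hsd17b2, another gene of the count table.

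Among large-subunit proteins specific to mitochondria, Mrpl41 had 46.9, 42.2 and 44.4 CPM in ON, 23.8, 24.5 and 19.4 CPM in OFF24 and 26.2, 30.0 and 28.3 CPM in OFF48 libraries. All later libraries were below ON, and its log2 fold change was −0.99 ± 0.14 and −0.67 ± 0.14 (edgeR adjusted p = 2.69e-05 and 0.00062). Mrpl44, which has a ribonuclease III fold, and Mrpl58, a peptidyl-tRNA hydrolase built into the subunit, did not pass at either time. The log2 fold change of Mrpl44 was 0.25 ± 0.20 at 24 h and 0.07 ± 0.21 at 48 h, and that of Mrpl58 was −0.39 ± 0.21 and −0.15 ± 0.22. Without ON replicate 3, Mrpl58 was at −0.58 at 24 h (edgeR adjusted p = 0.0401). Mrps36, the subunit of 2-oxoglutarate dehydrogenase, fell by 0.52 and 0.70 on the log2 scale (edgeR adjusted p = 0.00489 and 0.000349).

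**Figure D3:**
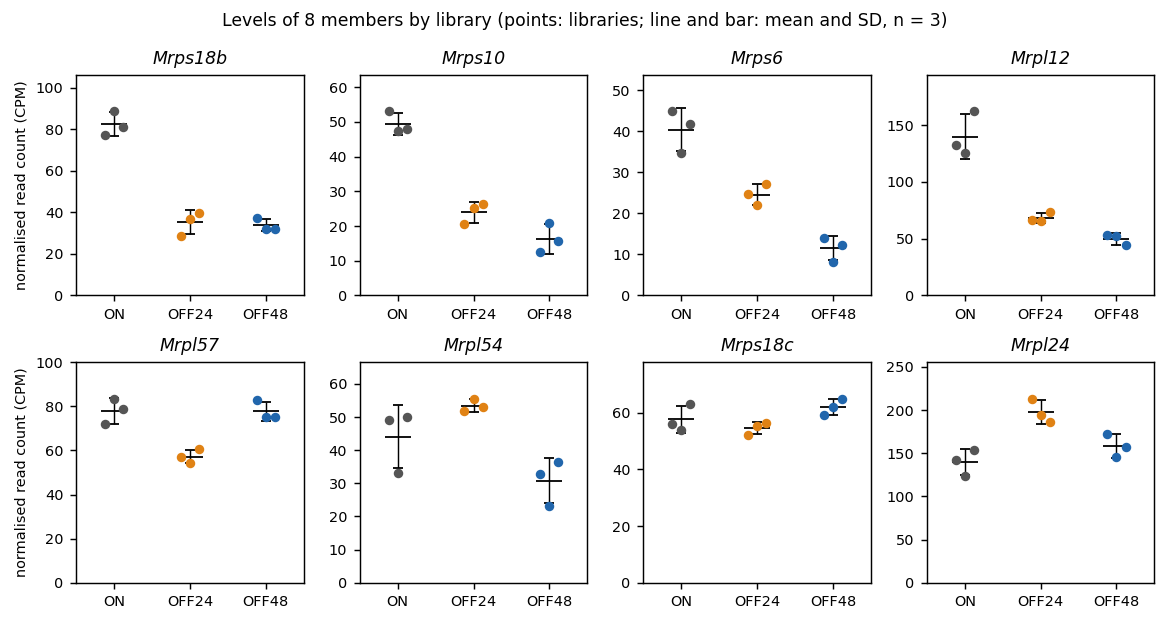
Normalised read count (CPM) of 8 members in each library of ON, OFF24 and OFF48, with axes that start at 0. Points are libraries, and the line and bar are the mean and SD of 3 libraries. Mrps18b, Mrps10, Mrps6 and Mrpl12 are lower in every OFF24 and OFF48 library than in ON, Mrpl57 is low at 24 h only, Mrpl54 is low at 48 h, Mrps18c shows overlapping groups, and Mrpl24 is highest at 24 h.

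Mrpl24 and Mrpl33 were the 2 members that rose, both at 24 h only. Mrpl24 (chr3:87919506-87923672, plus strand), whose bacterial homologue lies at the mouth of the exit tunnel, had 142, 124 and 154 CPM in ON, 213, 194 and 186 CPM in OFF24 and 172, 145 and 158 CPM in OFF48 libraries. Every OFF24 library was above every ON library, while OFF48 overlapped ON. Its log2 fold change was 0.50 ± 0.11 at 24 h (edgeR adjusted p = 0.00146) and 0.19 ± 0.11 at 48 h (edgeR adjusted p = 0.166). Mrpl33 (chr5:31596935-31664384, plus strand), the homologue of bacterial L33, had 207, 166 and 223 CPM in ON, 273, 255 and 279 CPM in OFF24 and 265, 181 and 213 CPM in OFF48 libraries. It too was above ON in all OFF24 libraries and overlapped ON at 48 h, at 0.44 ± 0.13 (edgeR adjusted p = 0.0126) and 0.16 ± 0.13 (edgeR adjusted p = 0.344). The rise of Mrpl33 did not pass the test without ON replicate 2, without OFF24 replicate 1 or without OFF24 replicate 3 (edgeR adjusted p = 0.0766, 0.0521 and 0.0668), which left Mrpl24 as the only member that rose.

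The 3' ends of both genes are overlapped in the annotation. Mrpl24 is overlapped on the opposite strand by Rrnad1, whose own log2 fold change was 0.20 at 24 h and 0.49 at 48 h and did not pass (edgeR adjusted p = 0.457 and 0.0506), and Mrpl33 by an unnamed gene model on the same strand that is not in the count table. Whether reads were counted by strand is not given in the sources used here. Of the 78 members, 23 have a last stretch of 400 bases that is matched elsewhere at 95% identity over at least 100 bases or is overlapped by another gene's exon. Among the other 55 members, 27 fell and 0 rose at 24 h (median −0.40) and 35 fell and 0 rose at 48 h (median −0.59), a selection made after the values were seen.

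Between the 2 later times, 9 members were lower at 48 h than at 24 h and 1 was higher, where 11.2% and 9.99% of all tested genes were, 21.1% in all. The share of members that were lower was thus close to that of all tested genes. The median log2 fold change of OFF48 against OFF24 was −0.18 over the members. Without OFF48 replicate 3, the library on which this count rests most, 5 members were lower. By single libraries, 24 members were lower in every OFF48 than in every OFF24 library, against 19.8% of all tested genes, and 5 were higher, against 18.2%. Mrps6, with −1.02 ± 0.20 (edgeR adjusted p = 0.00113), had the largest further fall. Mrps10 fell further by 0.63 (edgeR adjusted p = 0.0217), Mrpl11 by 0.58 (edgeR adjusted p = 0.00884) and Mrpl12 by 0.47 (edgeR adjusted p = 0.0178). The further fall of Mrps10 did not pass without OFF24 replicate 2, OFF24 replicate 3, OFF48 replicate 1 or OFF48 replicate 3 (edgeR adjusted p = 0.0694 to 0.148) or in DESeq2 (adjusted p = 0.0566), and that of Mrpl12 did not pass without OFF24 replicate 3 or OFF48 replicate 3 (0.109 and 0.121). Mrpl28 and Mrpl30, homologues of bacterial L28 and L30 named here after their values were seen, were also lower at 48 h than at 24 h, by 0.72 and 0.45.

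Other members did not pass the test against ON at 24 h and were lower at 48 h than at 24 h. Mrpl45, which tethers the large subunit to the inner membrane at the tunnel exit, had 64.8, 53.8 and 58.3 CPM in ON, 48.9, 60.6 and 56.9 CPM in OFF24 and 34.6, 18 and 40.2 CPM in OFF48 libraries. OFF24 overlapped ON, and every OFF48 library was below both other groups, with a log2 fold change of OFF48 against OFF24 of −0.75 ± 0.18 (edgeR adjusted p = 0.00574). Mrpl54, specific to mitochondria, had 49.0, 33.2 and 50.1 CPM in ON, 51.8, 55.6 and 53.0 CPM in OFF24 and 32.9, 23.2 and 36.4 CPM in OFF48 libraries. Every OFF24 library lay above every ON library, though the log2 fold change of 0.29 did not pass the test (edgeR adjusted p = 0.161). Its OFF48 libraries lay below all OFF24 libraries, with −0.74 ± 0.17 (edgeR adjusted p = 0.00412), and overlapped ON, with −0.45 ± 0.17 (edgeR adjusted p = 0.0387), a change against ON that did not pass in DESeq2 (adjusted p = 0.0529) or without any 1 of 7 libraries (0.0501 to 0.154). Mrpl27, the homologue of bacterial L27 that reaches into the peptidyl transferase centre, had a log2 fold change of OFF48 against OFF24 of −0.80 (edgeR adjusted p = 0.0277), which did not pass without OFF24 replicate 1 or 2 or OFF48 replicate 1 or 3 (0.0563 to 0.149), and its 3' end is matched by 41 other annotated genes and its value is uncertain.

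Mrpl57, specific to mitochondria, moved the other way. It had 71.9, 83.5 and 78.7 CPM in ON, 56.9, 54.3 and 60.5 CPM in OFF24 and 82.9, 75 and 75.2 CPM in OFF48 libraries. It was low in all OFF24 libraries, with a log2 fold change against ON of −0.45 ± 0.11 (edgeR adjusted p = 0.00467), and OFF48 overlapped ON. OFF48 against OFF24 gave a log2 fold change of 0.44 ± 0.12 (edgeR adjusted p = 0.00956).

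A further 5 mitoribosomal proteins have other symbols, and 4 of them fell at each time. Gadd45gip1 (also CRIF1), at the tunnel exit of the large subunit, had 44.9, 40.8 and 44.7 CPM in ON, 31.4, 29.5 and 30.1 CPM in OFF24 and 14.8, 16.5 and 13.1 CPM in OFF48 libraries. The groups did not overlap, and the log2 fold change was −0.52 at 24 h and −1.59 at 48 h (edgeR adjusted p = 0.00484 and 8.54e-08). The small-subunit proteins Chchd1 (−0.69 and −0.93 on the log2 scale) and Ptcd3 (−0.66 and −0.77) fell at both times. Dap3, a GTP-binding protein of the small subunit, fell at 48 h only (−0.08 and −0.56), and Aurkaip1 at 24 h only (−0.34 and −0.21).

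Genes that build or serve the mitochondrial ribosome were given by lists. For these and the lists that follow, 17.4% of all tested genes fell and 17.8% rose at 24 h. At 48 h, 23.9% of all tested genes fell and 23.4% rose. Of 26 assembly factors, 8 fell and 0 rose at 24 h (median −0.22), and 11 fell and 0 rose at 48 h (median −0.33). At an unadjusted p under 0.05, 1 rose at each time. Rcc1l, which assists assembly, had 21.9, 18.7 and 20.8 CPM in ON, 7.11, 9.42 and 7.74 CPM in OFF24 and 5.03, 7.50 and 4.08 CPM in OFF48 libraries. Its fall, at −1.32 and −1.99 on the log2 scale, was further below 0 than that of any member at either time, and no later library neared ON (edgeR adjusted p = 7.59e-05 and 1.33e-06). The GTPase Mtg1 fell by 0.80 and 1.10, and the GTPase Noa1 fell at 48 h by 1.18.

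Of 18 translation factors and partners, 2 fell at 24 h (median −0.19) and 7 at 48 h (median −0.43), with 0 higher, also at an unadjusted p under 0.05. The share that fell at 24 h, 11.1%, was under the 17.4% of all tested genes. The elongation factor Gfm1 fell by 0.70 and 0.84 on the log2 scale, and Slirp, which stabilises mitochondrial mRNAs, fell at 48 h by 1.10. Of 20 mitochondrial aminoacyl-tRNA synthetases and amidotransferase subunits, 3 fell at 24 h (median −0.30), and 6 fell and 2 rose at 48 h (median −0.40). Here too the share that fell at 24 h, 15%, was under that of all tested genes. Qrsl1, a subunit of the glutaminyl-tRNA amidotransferase, fell by 1.24 and 1.28, while Cars2 and Wars2 rose by 0.74 and 1.15 at 48 h. Of 17 genes of mitochondrial DNA upkeep and transcription, 3 fell and 1 rose at 24 h, and 4 fell and 1 rose at 48 h. The shares that fell, 17.6% and 23.5%, were close to the 17.4% and 23.9% of all tested genes. The DNA polymerase Polg rose by 0.46 and 0.73, and the topoisomerase Top1mt fell by 1.67 and 1.63.

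Mitochondrial chaperones and proteases had lower medians than the ribosomal proteins. Of 17 tested, 12 fell and 0 rose at 24 h (median −0.51), and 14 fell and 1 rose at 48 h (median −0.92). Their summed level was 2125, 2056 and 2131 CPM in ON, 1179, 1165 and 1219 CPM in OFF24 and 913.9, 860.1 and 840.9 CPM in OFF48 libraries. Nuclear-encoded subunits of the respiratory chain and ATP synthase had medians nearer 0. Of 76 tested, 10 fell and 5 rose at 24 h (median −0.04), and 31 fell and 3 rose at 48 h (median −0.22).

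The proteins of the cytosolic ribosome took another course at 24 h. Without the S6 kinases and Rps19bp1, which the symbol pattern also takes in, 84 were tested, of which 3 fell and 9 rose at 24 h (median 0.10), and 44 fell and 5 rose at 48 h (median −0.25). Their summed level was 108% of the ON mean in OFF24 and 83.1% in OFF48, where the mitochondrial members were at 81.6% and 72.7%. No test of the difference between these lists was made.

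**Figure D4:**
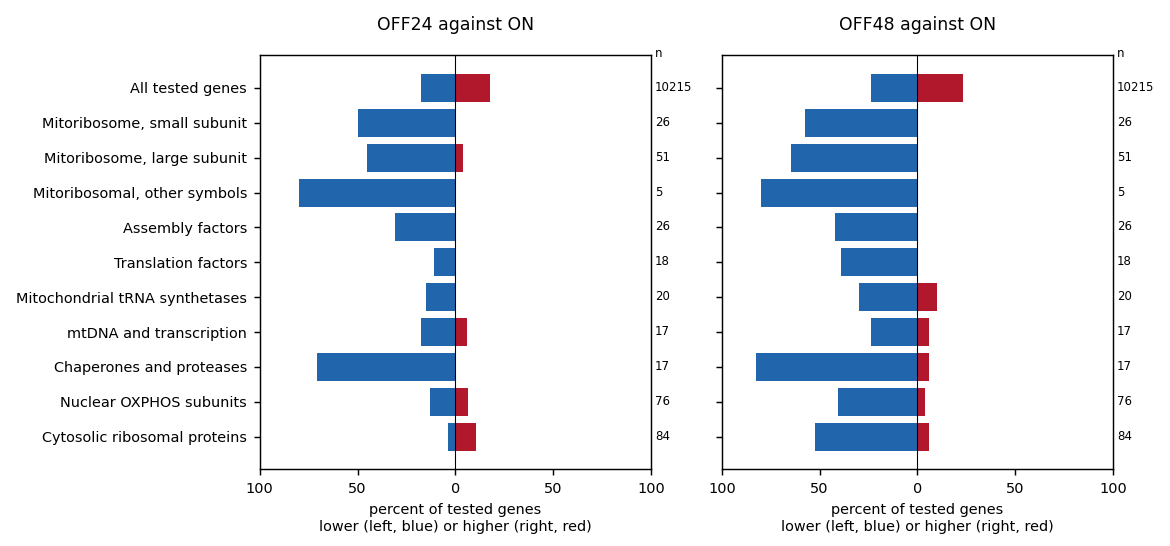
Percentage of tested genes that were lower (blue, to the left) or higher (red, to the right) at adjusted p under 0.05 in OFF24 against ON and in OFF48 against ON, for all tested genes, both mitoribosomal subunits and related lists, with the number tested (n) at the right. At 24 h the small and large mitochondrial subunits have 50% and 45.1% of their members lower, where the cytosolic ribosomal proteins have 3.57%.

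The mitochondrial ribosome translates the 13 protein-coding genes of mitochondrial DNA, each of which has its own row of counts. Whether each row measures a separate mRNA was not checked. At 24 h, 3 of them fell and 2 rose (median −0.24), and at 48 h 10 fell and 0 rose (median −0.82). ND3 fell by 0.82 and 1.06 on the log2 scale, and COX1 rose at 24 h by 0.43 and was at −0.04 at 48 h. ND6, the gene encoded on the other strand from the remaining 12, had 66.1, 56.7 and 60.8 CPM in ON, 117, 111 and 127 CPM in OFF24 and 4.03, 1.5 and 4.67 CPM in OFF48 libraries. It was thus above ON in every OFF24 library and far below it in every OFF48 library, with log2 fold changes of 0.95 and −3.98 (edgeR adjusted p = 7.41e-06 and 1.93e-11). The OFF48 values are near the floor, which is 2.26 CPM in OFF48 replicate 2. As the strand setting is not given, reads of the opposite strand may be among the ND6 counts, so its value is uncertain.

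Of 12 regulators known from other work to act on genes for mitochondrial proteins, 10 were tested, of which 5 fell and 0 rose at 24 h, and 5 fell and 1 rose at 48 h. The coactivators Ppargc1a and Ppargc1b lay under the filter. Myc had 23, 26.3 and 19.0 CPM in ON, 7.94, 9.73 and 8.04 CPM in OFF24 and 4.03, 8.25 and 8.16 CPM in OFF48 libraries. Every later library lay below ON, at −1.41 and −1.79 on the log2 scale (edgeR adjusted p = 7.8e-05 and 6.79e-06). The coactivator Pprc1 fell by 1.22 and 1.47, and the stress-response factors Atf4 (−1.44 and −1.20) and Atf5 (−1.78 and −0.65) fell at both times. Gabpa, Gabpb1 and Yy1 did not pass at either time, and Nrf1 rose at 48 h by 0.48 (edgeR adjusted p = 0.0208). Of 14 proliferation genes, 5 fell and 1 rose at 24 h, and 2 fell and 4 rose at 48 h. Their summed level was 3205 to 3335 CPM in ON, 2765 to 2817 CPM in OFF24 and 3246 to 3357 CPM in OFF48 libraries, so it was below ON at 24 h and overlapped ON at 48 h. The part of proliferation in the members' changes was not tested.

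Some members start close to a gene that runs the other way. A divergent protein-coding neighbour started within 1000 bases upstream of 18 of the 78 members, or 23.1%, against 11.9% of 9780 tested protein-coding genes. Pairs of genes that overlap at their starts, such as the members Mrpl46 and Mrps11, were not counted in either share. Of these neighbours 15 were tested, of which 3 fell and 4 rose at 24 h (median 0.12), and 2 fell and 2 rose at 48 h (median 0.14). Over all tested genes, 17.4% fell and 17.8% rose at 24 h, and 23.9% fell and 23.4% rose at 48 h. In the same 15 pairs 7 members fell at each time, and both genes of a pair fell in 1 pair at 24 h and in 0 pairs at 48 h. The pair at 24 h was Mrpl40, which fell by 0.54 (edgeR adjusted p = 0.0403) and whose 3' end matches a stretch of Phykpl, another gene of the count table, and Hira, which starts 175 bases from it and fell by 1.43 (edgeR adjusted p = 0.00093). Ppp1r10, which starts 45 bases from Mrps18b, had 79.4, 75.6 and 78.9 CPM in OFF24 and 59.2, 46.4 and 65.8 CPM in ON libraries. It was higher in every OFF24 library, with a log2 fold change of 0.46 ± 0.13 (edgeR adjusted p = 0.00788) where Mrps18b fell by 1.21. Klc4, which starts 207 bases from Mrpl2, rose by 0.88 at 24 h (edgeR adjusted p = 0.000942), and Mrpl2 fell by 0.42 (edgeR adjusted p = 0.0357). Pnpla7, which starts 935 bases from Mrpl41, rose by 1.04 and 1.40, and Mrpl41 fell by 0.99 and 0.67. Ptcd2, beside Mrps27, fell by 0.57 and 0.73, and Mrps27, the member with the fewest counts, was at −0.88 and −0.76 and did not pass.

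**Figure D5:**
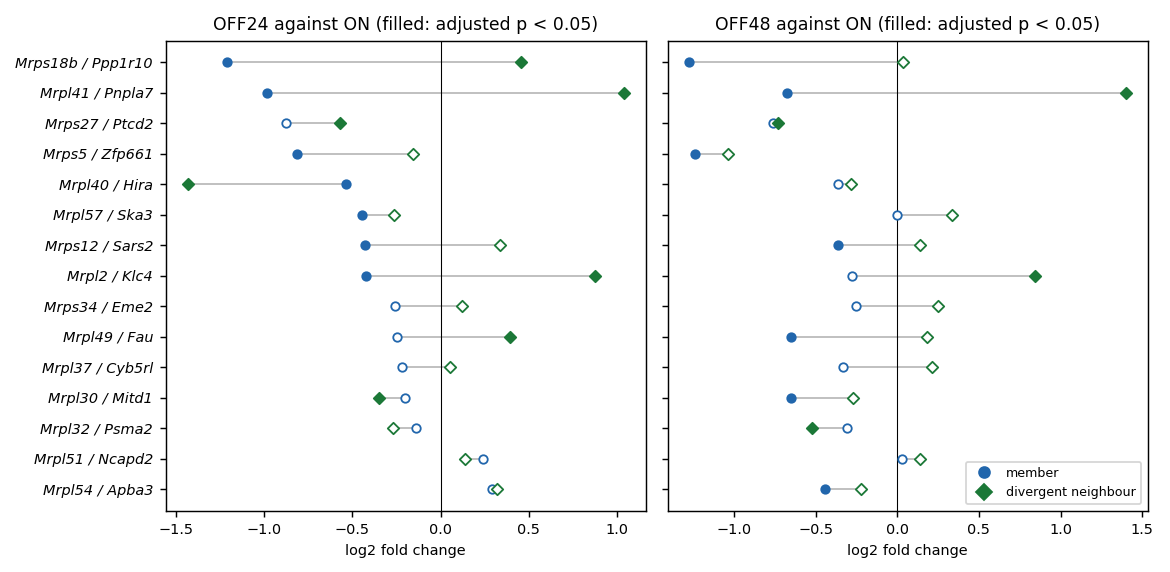
Log2 fold change against ON at 24 h (left) and 48 h (right) of the 15 members with a tested divergent neighbour within 1000 bases upstream (circles) and of that neighbour (diamonds), joined by a line for each pair. Pairs of genes that overlap at their starts are left out. Filled symbols passed an adjusted p under 0.05. The widest gaps are those of Mrpl41 and Pnpla7, with the member lower and the neighbour higher at both times.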

How the data were processed

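Gene expression was measured in 9 libraries of a mouse leukaemia line, 3 each of ON, OFF24 and OFF48, grouped by sample title. Per the labels' protocols, RNA was taken up in TriZol, cleaned on a column with DNase and turned into libraries by the Lexogen QuantSeq 3' kit. Per the submitters' processing notes, the build was mm10, and the tools listed, with no role or order, include HISAT2 2.0.4, cutadapt 1.5, Subread 1.5.0-p3 with featureCounts, limma 3.42.2, R 3.6.1, FastQC 0.11.2 and bcl2fastq 2.17.1.14. The sources used here do not state the annotation, the strand setting or how reads with several map positions were handled. The table deposited by the authors has a whole-number read count for each symbol and library, not normalised. A second deposited table holds 10552 rows of normalised log2 values and served only as an alternative.

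The main test was edgeR's (4.0.16, R 4.3.3). After filterByExpr by group, counts were scaled by TMM and fitted by robust quasi-likelihood with 1 mean per group over all 9 libraries (6 residual degrees of freedom). P-values were adjusted by Benjamini-Hochberg over 10215 genes with a threshold of 0.05, and the script was tested on simulated counts. CPM values are TMM-scaled, and ± after a log2 fold change is its standard error. Total counts of 1329296 to 4038456 per library set the precision, and floors cover counting error only since PCR reads without molecular identifiers are not independent molecules. Replicates were not identical within counting noise (1.99 to 6.99 chi-square units per degree of freedom), and each was counted once. The members and all gene lists were chosen with earlier results of these data known.

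Named members are, among those with a mean of at least 10 CPM that passed the threshold, the 6 largest falls and 6 largest rises against ON and the 4 and 4 between OFF48 and OFF24, plus members listed for their role. Of the other lists, up to 3 genes of smallest p per comparison against ON were named, together with a few named after their values were seen. Alternatives were RLE, upper quartile and no scaling, no filter, DESeq2 1.42.0, limma-voom (limma 3.58.1), limma on the deposited table, fits of 2 groups alone, the replicate number as a block, leaving out each library, and other memberships. Gene positions are from GENCODE M21 on GRCm38, which is mm10, and matched all 78 members. The last 400 bases of each member's transcript were searched with blastn 2.17.0. Promoter sequences are from RefSeq, GRCm38.p6. Protein sequences were not used here.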

Additional observations from a re-analysis of the deposited data

Results flagged for a closer look

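For 8 named members the change against ON differed between 24 h and 48 h, by edgeR's quasi-likelihood test of OFF48 against OFF24 with Benjamini-Hochberg adjustment over all tested genes. In that comparison 9 of the 78 members were lower and 1 was higher, where 11.2% and 9.99% of all tested genes were. The log2 fold change of OFF48 against OFF24 was −0.58 for Mrpl11, −0.47 for Mrpl12, −0.63 for Mrps10 and −1.02 for Mrps6, all of which had already fallen at 24 h. It was −0.80 for Mrpl27, −0.75 for Mrpl45 and −0.74 for Mrpl54, which did not pass against ON at 24 h. For Mrpl57 it was 0.44, after a fall at 24 h. Every OFF48 library of Mrpl57 lay above every OFF24 library.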

How the results depend on the processing

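The number of members that fell ranged over the alternatives that refit all libraries from 32 to 39 at 24 h (37 in the reported fit) and from 41 to 51 at 48 h (49), and it was 31 to 39 and 42 to 48 with 1 library left out. DESeq2 gave 32 falls at 24 h and 41 at 48 h. Members that rose at 24 h numbered 1 to 3 with 1 library left out and 0 among members whose 3' end is neither shared nor overlapped, a selection added after seeing the data. Between OFF48 and OFF24, 5 to 11 members were lower with 1 library left out. With 1 library left out the median log2 fold change of the members ran from −0.44 to −0.37 at 24 h, from −0.64 to −0.55 at 48 h and from −0.18 to −0.13 between OFF48 and OFF24. Under upper quartile scaling the summed level in OFF24 was 3809 CPM, against 3736 CPM as reported. The cause of these shifts was not tested.

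With the replicate number as a block, 39 members fell and 2 rose at 24 h, 51 fell and 0 rose at 48 h, and 12 were lower and 1 higher at 48 h than at 24 h. Deviations of libraries with the same number in different groups correlated from −0.022 to 0.406, and those with different numbers from −0.283 to 0.191. Replicate 2 libraries correlated at 0.203 (ON and OFF24), 0.406 (ON and OFF48) and 0.175 (OFF24 and OFF48). As same-number values were not all above 0.1, the numbers were not taken as pairs in the reported fit. Whether replicate 2 libraries share a batch was not tested.

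Of 1116 values of the 27 named members under alternatives, 17 changed sign, and none of these belonged to a change that had passed the test. Mrpl27 at 24 h was 0.038 under upper quartile scaling, 0.042 in limma-voom and 0.043 on the deposited normalised table, and ran from −0.25 to 0.24 with 1 library left out. Mrpl57 at 48 h was 0.0013 in limma-voom and 0.00085 with the 2 groups alone, and ran from −0.059 to 0.049 with 1 library left out. Mrpl44 at 48 h was −0.037 on the deposited normalised table and ran from −0.18 to 0.23 with 1 library left out. The same omission gave −0.22 to 0.028 for Mrps7 at 24 h, −0.0015 to 0.27 for Mrpl33 at 48 h and −0.33 to 0.14 for Mrpl58 at 48 h. In members with few counts, such as Mrps27 with 88 in all libraries together, even larger changes can be missed. Mrps27 was at −0.88 at 24 h and −0.76 at 48 h and did not pass.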
